A study of Mus musculus with 18 samples.

Results

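The genes described here are 10 genes of the actin cytoskeleton, Actb, Actg1, Pfn1, Cfl1, Tmsb4x, Tmsb10, Coro1a, Arpc1b, Arpc2 and Vim. They were taken by name from a deposited table with 15697 named genes, and all 10 were found. The mouse series set T cells activated at 4 peptide doses beside naive T cells and the presenting cells. The T cells were CD4+ cells from spleen and lymph node that carried the transgenic 5CC7 receptor, which recognises the cytochrome c peptide pPCC. Activation lasted 4 days, with P13.9, a line of fibroblasts, presenting pPCC that had been loaded at 0.01, 0.1, 1.0 or 10 µM. P13.9 cells alone and naive 5CC7 CD4+ T cells were sequenced as well, which gave 6 groups of 3 libraries. All T cell groups thus carried the same receptor transgene, the activated groups had been cultured with P13.9, and P13.9 is 1 line. Neither the ages of the animals nor whether a group's 3 samples came from separate animals or cultures is stated in the sources used here. The p-values therefore reflect only how much these libraries differed, which may be technical.

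Messenger RNA was measured by sequencing the 3′ ends of transcripts, and values are the authors' normalized read counts. Activated libraries held 156941 to 732987 reads in named genes and P13.9 libraries 201620 to 351978, against 27784 to 97752 in naive libraries. Correlations between replicates were 0.90 or more in activated and P13.9 cells, against 0.601 to 0.765 in naive cells, and each naive read counted for 2.17 to 6.55 normalized units. The labels fitted the markers: all 13 T cell markers had reads in every T cell group, and their sum was 30.9 in P13.9 against 2074 in naive cells. Of the 13, 12 had some reads in P13.9 too, and Cd3e had none there. In activated cells the T cell sum was 1199 to 1373 at 0.01 µM and 1465 to 1889 at the higher doses, against 1855 to 2202 in naive libraries. Markers of other cells also moved with the groups. A list of 8 myeloid markers summed to 7.54 to 11.1 at 0.01 µM and 1.53 to 3.39 at 10 µM, against 85.2 to 121 in naive libraries, where 6 of the 8 had reads and Adgre1 and Itgax were at 0. Of 16 fibroblast markers, 13 were in the table. All 13 had reads in P13.9 and at 0.01 µM, against 6 in naive cells. Among those at 0 in naive cells, Pdgfrb had 28 reads in P13.9, but Col1a1 had only 2. Bgn went the other way, at 9.12 in naive cells (9 reads) and 0.147 in P13.9 (1 read). The sum of the 13 markers was 517 to 597 in P13.9, 99.3 to 149 at 0.01 µM and 6.78 to 14.7 at 10 µM, against 19.7 to 36.8 in naive libraries. Of 6 B cell markers 2 were in the table, and they summed to 7.20 or less at 0.01 µM and 9.70 to 19.2 at the higher doses, against 0 to 23.4 in naive libraries. A P13.9-like share of each library, the median of its Col1a2, Sparc, Fn1 and Serpinh1 values over the P13.9 means, averaged 31.9% at 0.01 µM and 1.53% to 7.79% at the higher doses. These genes differed: at 0.01 µM Fn1 averaged 33.7 against 277 in P13.9, and Serpinh1 20.8 against 50.3.

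Actin is a small protein that exists as single molecules and as filaments, and cells reshape themselves by moving it between these forms. Thymosins hold single molecules in reserve, profilin feeds them to growing filament ends, cofilin cuts old filaments, and the Arp2/3 complex starts branches. In T cells these filaments build the contact with the presenting cell and drive migration, and coronin 1A, the Arp2/3 complex and cofilin take part in this. Vimentin is not an actin but forms intermediate filaments beside them. Many actin genes are controlled by serum response factor, which binds a motif called the CArG box and whose cofactors sense free actin molecules.

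For each of the 4 genes on which the results turn, 1 promoter window is printed here. It runs from 250 bases before to 50 bases after an annotated transcription start, from RefSeq on GRCm38.p6, the assembly also called mm10. Coro1a and Tmsb10 had windows at other annotated starts too, which were searched but are not printed. Of the 10 genes, 9 had a promoter in that table. Actb had none, so its promoter was not searched for any motif. Capitals mark the TATA box, searched as TATAAA, or the GC box, searched as GGGCGG, each on both strands. The printed windows are chr2:13574061-13574360 on the plus strand for Vim and chr7:126704767-126705066 on the minus strand for Coro1a. The others printed are chr6:72958699-72958998 on the minus strand for Tmsb10 and chrX:167209169-167209468 on the minus strand for Tmsb4x.
Vim: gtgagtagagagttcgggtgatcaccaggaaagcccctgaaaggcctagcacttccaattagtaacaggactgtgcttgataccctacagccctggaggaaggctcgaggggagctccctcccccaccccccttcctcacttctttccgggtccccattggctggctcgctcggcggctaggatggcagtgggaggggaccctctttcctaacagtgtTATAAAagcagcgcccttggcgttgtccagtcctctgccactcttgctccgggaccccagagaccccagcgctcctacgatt
Coro1a: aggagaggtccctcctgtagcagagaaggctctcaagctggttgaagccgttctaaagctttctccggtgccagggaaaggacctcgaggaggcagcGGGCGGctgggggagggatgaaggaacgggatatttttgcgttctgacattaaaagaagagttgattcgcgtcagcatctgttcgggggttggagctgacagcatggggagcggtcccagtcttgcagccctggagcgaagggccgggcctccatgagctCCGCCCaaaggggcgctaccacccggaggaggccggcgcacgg
Tmsb10: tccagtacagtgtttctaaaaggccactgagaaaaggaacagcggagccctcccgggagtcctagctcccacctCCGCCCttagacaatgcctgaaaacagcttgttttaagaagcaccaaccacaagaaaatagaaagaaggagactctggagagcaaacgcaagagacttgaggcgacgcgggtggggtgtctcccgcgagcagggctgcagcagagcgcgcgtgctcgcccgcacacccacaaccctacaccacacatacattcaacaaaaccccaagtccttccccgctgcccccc
Tmsb4x: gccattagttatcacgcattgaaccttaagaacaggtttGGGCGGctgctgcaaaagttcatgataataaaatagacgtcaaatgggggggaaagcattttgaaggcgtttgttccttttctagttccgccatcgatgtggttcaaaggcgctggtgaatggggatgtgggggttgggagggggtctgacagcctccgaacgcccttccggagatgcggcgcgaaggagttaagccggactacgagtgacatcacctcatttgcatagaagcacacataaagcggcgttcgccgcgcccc
Vim alone of the 9 held a TATA box, 32 bases before its start, where 13.6% of 32851 promoters held one. GC boxes lay in at least 1 window of the other 8 genes, among them Coro1a, Tmsb10 and Tmsb4x, and in 35.7% of all promoters. That percentage is per promoter and not per gene. The windows not printed held 1 GC box for Coro1a and 2 each for Tmsb10. A CArG box, searched by its name, lay in the window of Actg1 only, 90 bases before the start, and in 1.63% of all promoters. It overlapped no GC box. A match describes these letters and is not a bound site.

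All 10 genes had reads in the activated T cells and in P13.9, and 9 had reads in naive cells. Together they took 1.54% to 2.01% of named reads in the activated libraries and 0.527% to 0.593% in P13.9 libraries, against 0.508% to 0.885% in naive libraries. The activated and naive ranges did not overlap. In bulk samples, fewer cells of a type and less RNA per cell cannot be told apart.

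**Figure D1:**
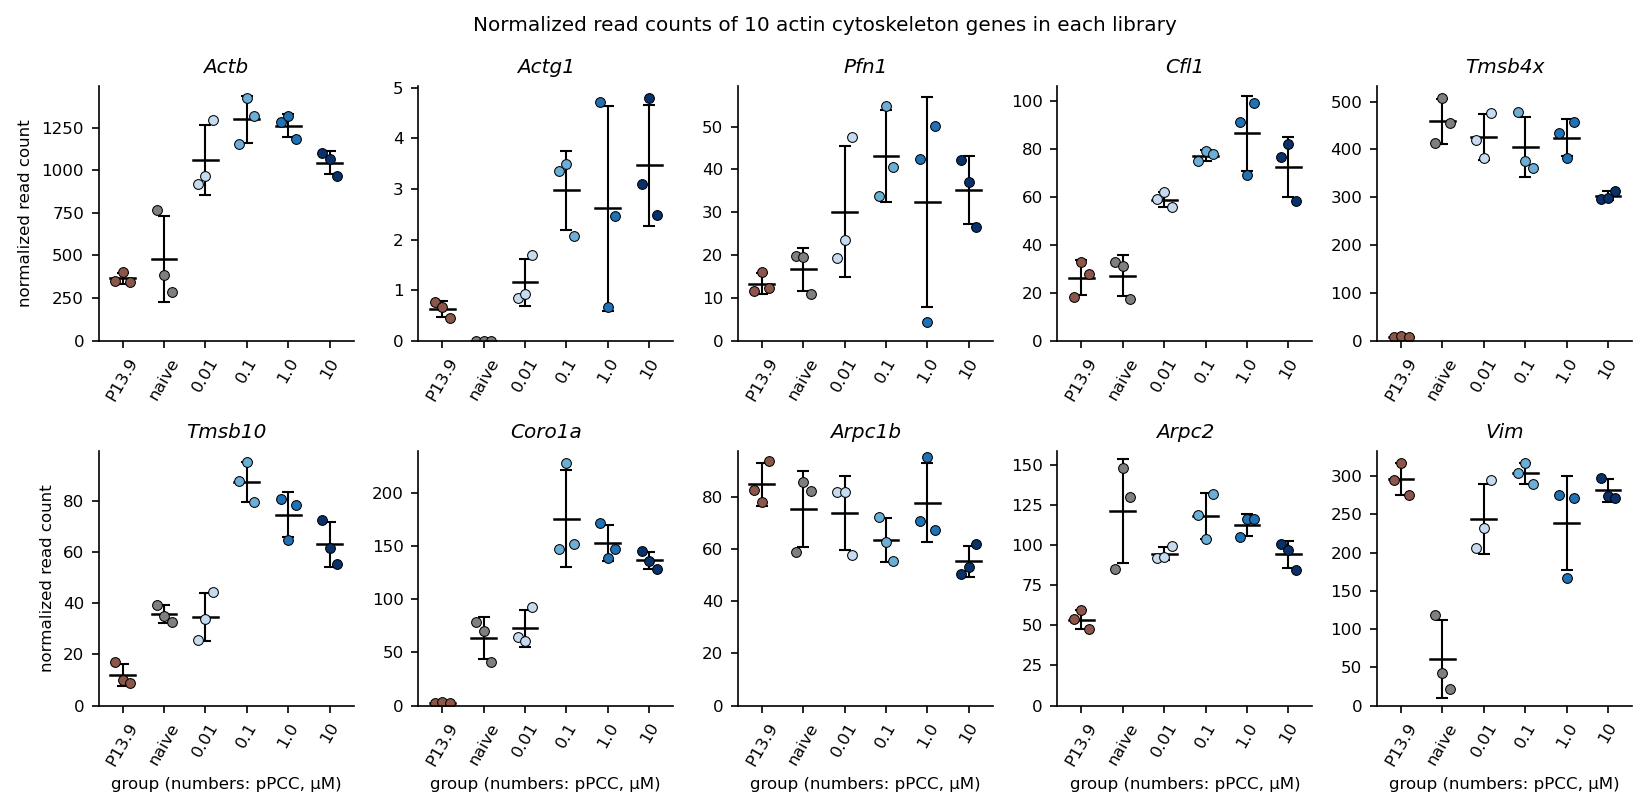
Normalized read counts of the 10 genes in P13.9 cells, naive T cells and T cells after 4 days at 4 pPCC doses (numbers under the axis, in µM). Points are libraries, horizontal lines are means and bars are ± 1 SD (n = 3), on axes that differ between genes. Actb, Cfl1 and Vim lie higher in every activated library than in every naive library, and Tmsb10 and Coro1a do so from 0.1 µM up.

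Actb (chr5:142903115-142907976), which encodes beta-actin, the main actin of most cells, was higher after activation at all 4 doses. The libraries held 919.6, 967 and 1294 normalized reads at 0.01 µM, 1152, 1422 and 1319 at 0.1 µM, 1281, 1318 and 1186 at 1.0 µM and 1098, 1065 and 968 at 10 µM, against 767, 387 and 286 in naive cells. Every activated library was above every naive library, although the naive libraries differed among themselves by more than any activated group. Against naive cells the log2 change ± SE was 1.25 ± 0.26 (limma adjusted p = 0.00103) at 0.01 µM, 1.56 ± 0.26 (limma adjusted p = 0.000132) at 0.1 µM, 1.52 ± 0.26 (limma adjusted p = 0.000169) at 1.0 µM and 1.24 ± 0.26 (limma adjusted p = 0.000831) at 10 µM, which are 2.37-fold to 2.94-fold. These and later changes are on the log2(value + 1) scale, which understates changes of low genes. The middle doses stood highest, but neighbouring doses overlapped. P13.9 held 348, 402 and 345, and its change against naive cells was -0.27 ± 0.24 (limma adjusted p = 0.347). Without the third naive library that change was -0.58 (limma adjusted p = 0.0316).

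Actg1 (chr11:120345687-120348495), which encodes the other cytoplasmic actin, gamma-actin, was barely seen. It had 14, 20, 19 and 38 reads in ascending order of dose, 3 reads in P13.9 and 0 in naive cells, and it passed the filter on low values in no fit. Per 100000 named reads this was 0.846 at 0.01 µM (exact 95% counting interval 0.463 to 1.42), 2.17 at 0.1 µM (1.33 to 3.36), 1.76 at 1.0 µM (1.06 to 2.75) and 2.56 at 10 µM (1.81 to 3.51). The interval at 10 µM lies above the one at 0.01 µM. In naive cells 0 reads allow up to 1.68 per 100000, taking 3 reads over the group as the limit, and the exact 95% interval of 0 reads reaches 2.06. The intervals at all 4 doses overlap it, but overlap is not a test, and no dose was tested against naive cells for Actg1. These intervals cover counting error only. In ascending order of dose, the log2 ratio of Actb to Actg1 was 9.90 ± 0.28, 8.80 ± 0.46, 9.31 ± 1.47 and 8.29 ± 0.43 (SD, n = 3). Against 0.01 µM the exact two-sided permutation p was 0.1 at 0.1 and at 10 µM, below which 3 against 3 cannot go, and 0.6 at 1.0 µM. The slope over the 12 activated libraries was -0.43 per 10-fold dose, with a two-sided permutation p of 0.0682. Actin genes have near-identical copies in the genome, and how reads that map to several places were handled is not stated in the sources, so the levels of Actb, Actg1, Pfn1, Cfl1 and both thymosins are uncertain to that extent.

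Pfn1 (chr11:70651844-70656799), which encodes profilin 1, was called against naive cells at no dose by limma on the deposited values. At 0.01, 0.1, 1.0 and 10 µM it averaged 30.1 ± 15.3, 43.1 ± 10.8, 32.3 ± 24.5 and 35.2 ± 7.98, against 16.7 ± 5.06 in naive cells (SD, n = 3). Library B at 1.0 µM held 4.35, beside 42.5 and 50.1 in the other two. The log2 change at 1.0 µM against naive cells was 0.42 ± 0.63 (limma adjusted p = 0.603), and without library B it was 1.46 (limma adjusted p = 0.00491). At 0.1 µM it was 1.34 ± 0.63 (limma adjusted p = 0.0841) and at 10 µM 1.05 ± 0.63 (limma adjusted p = 0.167). Other settings called it: as CPM it rose by 1.87 at 0.1 µM (limma adjusted p = 0.017) and 1.67 at 10 µM (0.0299). With edgeR it rose by 2.11 at 0.1 µM (adjusted p = 0.0107), 1.76 at 1.0 µM (0.0353) and 1.91 at 10 µM (0.0183).

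Cfl1 (chr19:5490455-5494031), which encodes cofilin 1, rose at all 4 doses. It held 59.1, 62.1 and 55.7 at 0.01 µM, 75.0, 79.3 and 77.9 at 0.1 µM, 91.3, 69.2 and 99.3 at 1.0 µM and 76.8, 82.2 and 58.4 at 10 µM, against 32.8, 31.2 and 17.3 in naive cells. All 12 activated libraries were above the 3 naive ones, and the change was largest at 1.0 µM, where log2 was 1.68 ± 0.23 (limma adjusted p = 1.79e-05). At 0.01 µM it was 1.14 ± 0.23 (limma adjusted p = 0.000676). P13.9 held 18.4, 32.8 and 27.8, which overlapped the naive range.

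The thymosins had different patterns, with Tmsb10 called higher than naive at the 3 upper doses and Tmsb4x called lower at 10 µM, as deposited. Tmsb10 (chr6:72957347-72958748), thymosin beta 10, held 25.6, 33.8 and 44.2 at 0.01 µM, 87.5, 95 and 79.5 at 0.1 µM, 80.8, 64.5 and 78.4 at 1.0 µM and 72.3, 61.3 and 55.2 at 10 µM, against 39.3, 35.1 and 32.5 in naive cells. The 0.01 µM libraries lay around the naive ones, and the libraries of the 3 higher doses lay above both. The log2 change against naive cells was -0.07 ± 0.20 (limma adjusted p = 0.778) at 0.01 µM, 1.27 ± 0.20 (limma adjusted p = 6.73e-05) at 0.1 µM, 1.04 ± 0.20 (limma adjusted p = 0.000398) at 1.0 µM and 0.80 ± 0.20 (limma adjusted p = 0.00288) at 10 µM. The last lost its call with array weights (adjusted p = 0.0655, limma), and the change at 0.01 µM turned to 0.58 (limma adjusted p = 0.0242) when libraries were scaled to their total of named reads (CPM).

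Tmsb4x (chrX:167207093-167213479), thymosin beta 4, held 419, 382 and 477 at 0.01 µM, 478, 377 and 360.3 at 0.1 µM, 434, 382 and 457 at 1.0 µM and 296, 299 and 314 at 10 µM, against 413, 508 and 455 in naive cells. The 3 libraries at 10 µM were lower than every other T cell library. The log2 change at 10 µM against naive cells was -0.59 ± 0.14 (limma adjusted p = 0.00265), and it was 0.06 as CPM, 0.12 with edgeR and 0.06 with DESeq2, so its direction depends on the scaling. CPM moved the median log2 change of all genes at 10 µM against naive cells to 0.46, beside -0.07 as deposited. Relative to that median Tmsb4x was at -0.52 as deposited, -0.41 as CPM, -0.35 after quantile normalization and -0.21 with edgeR. At 0.01 µM the change was -0.11 ± 0.14 (limma adjusted p = 0.56) as deposited and 0.56 (limma adjusted p = 0.00317) as CPM.

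The ratio of the thymosins within a library does not depend on how libraries are scaled. At 0.01, 0.1, 1.0 and 10 µM the log2 ratio of Tmsb4x to Tmsb10 was 3.65 ± 0.33, 2.21 ± 0.23, 2.51 ± 0.08 and 2.28 ± 0.24, against 3.68 ± 0.25 in naive cells (SD, n = 3). The 0.01 µM libraries, at 3.43 to 4.03, overlapped the naive ones, at 3.39 to 3.85, and the 9 libraries at higher doses, at 1.99 to 2.57, all lay below both. The difference was -1.38 between 10 and 0.01 µM, -1.45 between 0.1 and 0.01 µM and -1.14 between 1.0 and 0.01 µM, each at the lowest p, 0.1, of the exact permutation test. Between 10 and 0.1 µM it was 0.07 (exact permutation p = 0.7). Over the 12 activated libraries the slope was -0.38 per 10-fold dose with a two-sided permutation p of 0.0107. P13.9 had a ratio of -0.44 ± 0.55.

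**Figure D2:**
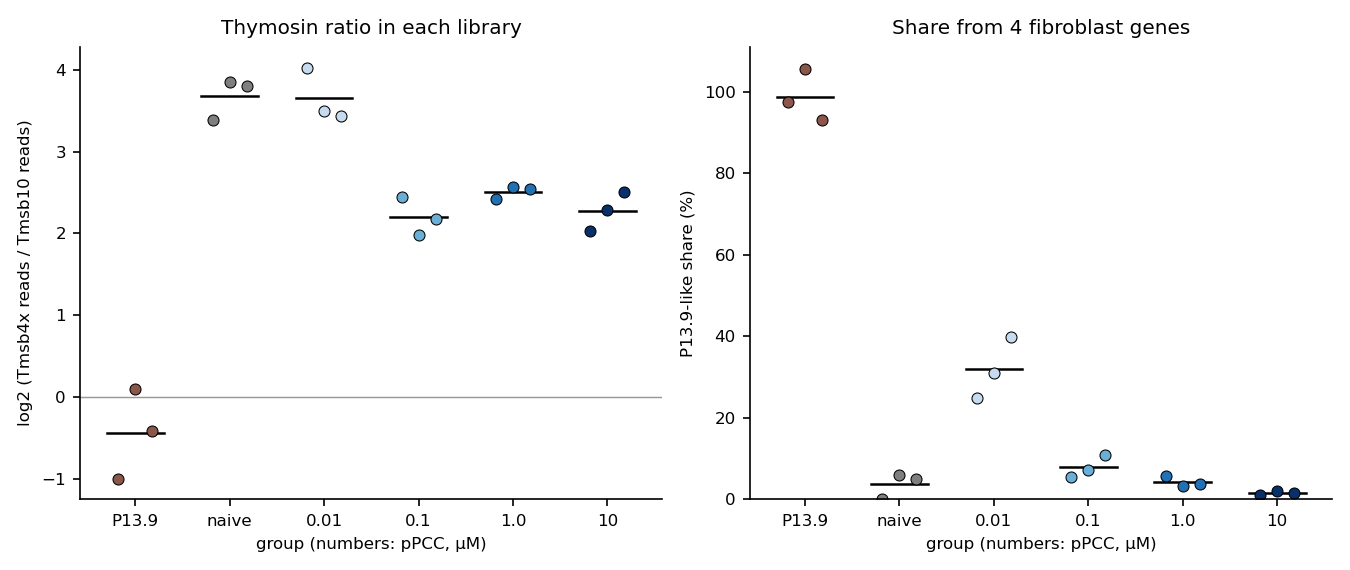
Left, the log2 ratio of Tmsb4x to Tmsb10 values in each library of the 6 groups, and right, the P13.9-like share in percent, the median over 4 fibroblast genes of a library's value relative to the P13.9 mean. Points are libraries and lines are group means. The ratio is 3.65 on average at 0.01 µM and 2.21 to 2.51 at the higher doses, and the share averages 31.9% at 0.01 µM and 1.53% at 10 µM.

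Coro1a (chr7:126699774-126704816), which encodes coronin 1A, an actin-binding protein of blood cells that T cells need for survival and migration, had a pattern like that of Tmsb10. It held 64.6, 61.0 and 92.4 at 0.01 µM, 147, 228 and 152 at 0.1 µM, 172, 139 and 147 at 1.0 µM and 145, 136 and 129 at 10 µM, against 78.6, 70.3 and 41.1 in naive cells. The 0.01 µM libraries overlapped the naive ones, and the 9 libraries at higher doses were above both groups. The log2 change against naive cells was 0.22 ± 0.24 (limma adjusted p = 0.461) at 0.01 µM, 1.48 ± 0.24 (limma adjusted p = 0.000103) at 0.1 µM, 1.30 ± 0.24 (limma adjusted p = 0.000325) at 1.0 µM and 1.15 ± 0.24 (limma adjusted p = 0.000859) at 10 µM. With other scalings the 0.01 µM change passed too, at 0.88 (limma adjusted p = 0.00738) as CPM.

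Arpc1b (chr5:145114256-145128186) and Arpc2 (chr1:74236490-74268209), subunits of the Arp2/3 complex, passed the test at no dose against naive cells as deposited. At 0.01, 0.1, 1.0 and 10 µM Arpc1b averaged 74.0 ± 14.1, 63.6 ± 8.56, 78.0 ± 15.3 and 55.4 ± 6.09, against 75.7 ± 14.6 in naive cells. Arpc2 averaged 94.7 ± 4.17, 118 ± 14.2, 113 ± 6.62 and 94.3 ± 8.39 at the same doses, against 121 ± 32.5 in naive cells. At 10 µM the log2 change was -0.43 ± 0.21 (limma adjusted p = 0.0863) for Arpc1b and -0.32 ± 0.18 (limma adjusted p = 0.144) for Arpc2. As CPM Arpc1b was called higher at 0.01 µM (0.63, limma adjusted p = 0.0145) and 1.0 µM (0.63, 0.0133) and Arpc2 at 0.1 µM (0.56, 0.00925) and 1.0 µM (0.52, 0.0146). As deposited these changes were near 0, at -0.03 and 0.04 for Arpc1b and -0.005 and -0.07 for Arpc2. These calls thus depend on the scaling. Without the first naive library both passed as lower at 10 µM, at -0.60 (limma adjusted p = 0.015) and -0.56 (adjusted p = 0.00331).

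Vim (chr2:13574311-13582826), which encodes vimentin, the intermediate filament protein of fibroblasts and activated lymphocytes, had the largest rise of the 9 genes tested at each dose. It held 206, 232 and 295 at 0.01 µM, 304, 317 and 289.9 at 0.1 µM, 276, 167 and 271 at 1.0 µM and 298, 274 and 272 at 10 µM, against 118, 42.9 and 21.7 in naive cells. No activated library overlapped the naive range. The log2 change was 2.30 ± 0.40 (limma adjusted p = 0.000259) at 0.01 µM, 2.63 ± 0.40 (limma adjusted p = 6.08e-05) at 0.1 µM, 2.25 ± 0.40 (limma adjusted p = 0.000259) at 1.0 µM and 2.52 ± 0.40 (limma adjusted p = 8.4e-05) at 10 µM. The naive levels rested on 18, 11 and 10 reads, and leaving out the first or the third naive library moved the change at 10 µM between 1.96 and 3.16 with the call kept. P13.9 held 295, 318 and 275, overlapping the activated libraries. With the P13.9-like share subtracted from the activated libraries only, the change of Vim at 0.01 µM against naive cells was 2.16 (limma adjusted p = 0.000677).

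Counted together, 3 of the 9 tested genes rose at 0.01 µM against naive cells, where 49.4% of all genes tested were called in either direction. At 0.1 µM 5 rose, beside 56.3% of all genes, and at 1.0 µM the same 5 rose, beside 54.7%. At 10 µM those 5 rose and Tmsb4x fell, beside 57.1%. With so many of all genes called, these counts do not set the 9 genes apart. Their median log2 change was 0.22, 1.34, 1.04 and 1.05 in ascending order of dose, where the median of all genes lay between -0.07 and 0.03. Other scalings raised the counts at the 3 lower doses: in the same order they were 7, 8, 8 and 6 as CPM, beside 55.4%, 60.4%, 58.3% and 61.4% of all genes, and 6, 8, 9 and 6 with edgeR, beside 45.8%, 51.4%, 50.4% and 54.9%. They also moved the balance over all genes: 42.6% to 44.2% of calls were higher than in naive cells as deposited, 59.9% to 67.2% as CPM. Actb, Cfl1 and Vim were called higher at all 4 doses as deposited, as CPM, after quantile normalization and with edgeR and DESeq2. Myeloid markers were higher in naive libraries, as given above, and their part in these changes was not tested.

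**Figure D3:**
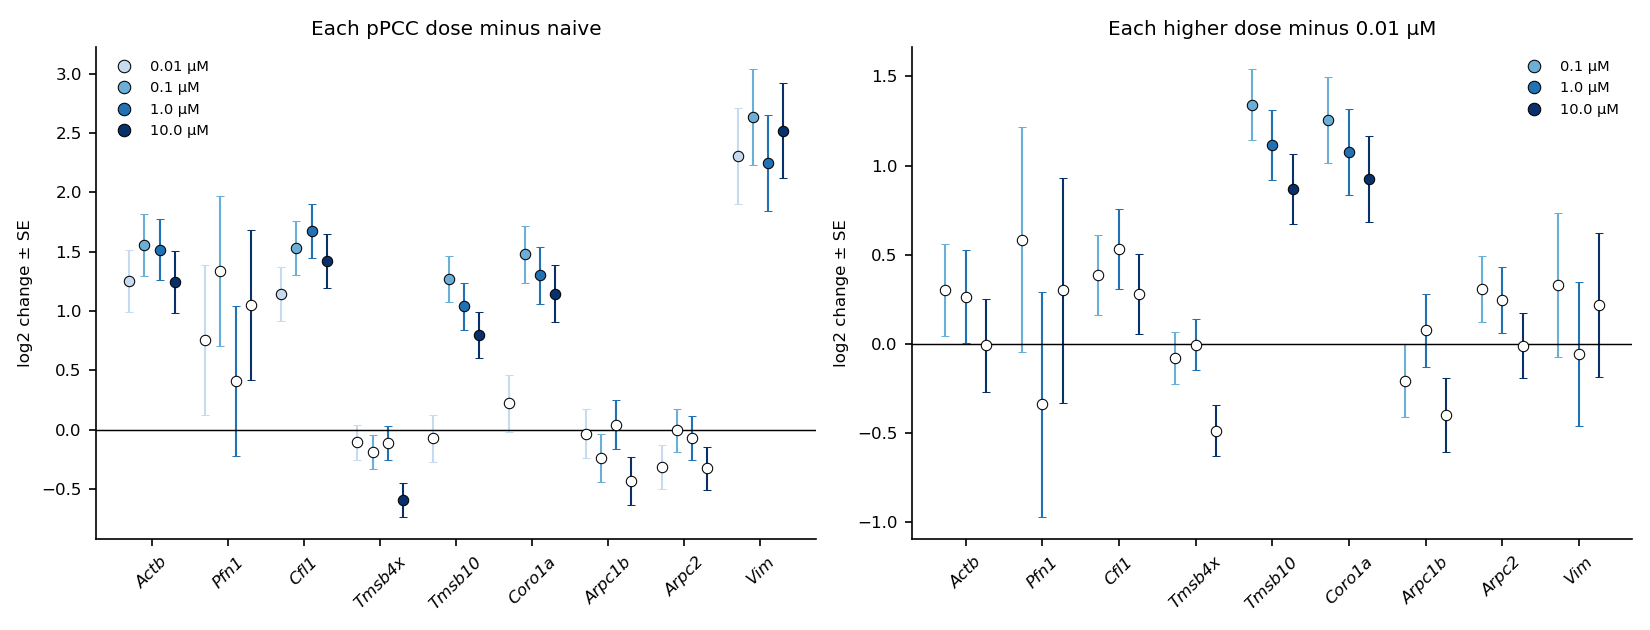
Log2 change ± SE of the 9 tested genes (limma, n = 3 per group), at left for each pPCC dose against naive cells and at right for each higher dose against 0.01 µM. Filled points passed an adjusted p of 0.05 and open points did not. Actb, Cfl1 and Vim are filled at all 4 doses at left, and only Tmsb10 and Coro1a are filled at right, from this scaling.

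Between doses the calls were few. At 10 against 0.01 µM, Tmsb10 rose by 0.87 ± 0.20 (limma adjusted p = 0.0124) on the log2 scale and Coro1a by 0.92 ± 0.24 (limma adjusted p = 0.027), 2 of 9 genes where 8.15% of all genes were called. Tmsb4x missed the threshold at -0.48 ± 0.14 (limma adjusted p = 0.0508), and it passed in every alternative run for this comparison, such as edgeR at -0.44 (adjusted p = 0.0278), other than those that left out a library, where it lay between -0.56 and -0.40 with no call. At 0.1 against 0.01 µM the change was 1.34 ± 0.20 (limma adjusted p = 0.00224) for Tmsb10 and 1.26 ± 0.24 (limma adjusted p = 0.00991) for Coro1a, beside 5.59% of all genes. At 1.0 against 0.01 µM it was 1.11 ± 0.20 (limma adjusted p = 0.00518) and 1.08 ± 0.24 (limma adjusted p = 0.0196), beside 4.3%. None of the 9 was called at 1.0 against 0.1 µM (0% of all genes by limma, with 110 genes at an unadjusted p below 0.05, and 0 by edgeR and DESeq2). None was called at 10 against 1.0 µM, beside 0.0826%, or at 10 against 0.1 µM, beside 0.0964%. The dose slope was called for none, beside 14.5% of all genes.

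The sample numbers in the labels fall in 2 series, with 10 and 0.1 µM in one and 1.0 µM, 0.01 µM, naive cells and P13.9 in the other. Within a series, Tmsb10 changed by 1.11 ± 0.20 at 1.0 against 0.01 µM and by -0.47 ± 0.20 (limma adjusted p = 0.842) at 10 against 0.1 µM. Coro1a changed by 1.08 ± 0.24 and by -0.33 ± 0.24 (limma adjusted p = 1) in the same pairs. The step up from 0.01 µM was thus also seen within a series. Actb, Cfl1 and Vim were called higher at 0.01 and 1.0 µM, whose series holds the naive cells too.

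Some of these calls were lost when 1 library was left out, which also leaves fewer libraries in the fit. Coro1a at 10 against 0.01 µM lost its call without 0.01 µM A or B or any one library at 10 µM (adjusted p up to 0.129), and Tmsb10 without 0.01 µM A, 0.01 µM B or 10 µM A (up to 0.0771). At 0.1 against 0.01 µM Coro1a lost its call without 0.01 µM A, 0.01 µM B or 0.1 µM B (up to 0.062), while Tmsb10 kept it. At 1.0 against 0.01 µM Coro1a lost it without 0.01 µM A, 0.01 µM B, 1.0 µM A or 1.0 µM C (up to 0.112). The log2 changes in these fits lay between 0.68 and 1.53 for Tmsb10 and between 0.81 and 1.44 for Coro1a. At 10 against 0.01 µM, Coro1a changed by 0.92 with all libraries. It changed by 0.85 without 0.01 µM A and 0.81 without 0.01 µM B. Without 10 µM A, B or C the change was 0.88, 0.93 and 0.97, so a call could be lost with little change in size.

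Transcripts of other cells moved with dose, as did the step in Tmsb10 and Coro1a. T cell markers and B cell markers, whose sums are given above, were lower in every 0.01 µM library than at any higher dose, and their part in the step was not tested. Fibroblast transcripts ran the other way. At 0.01, 0.1, 1.0 and 10 µM the P13.9-like share was 31.9 ± 7.55%, 7.79 ± 2.75%, 4.22 ± 1.34% and 1.53 ± 0.482%, against 3.63 ± 3.18% in naive cells (SD, n = 3). At 0.01 µM this share times the P13.9 level equals 38.8% of the Arpc1b value, 38.4% of Vim, 10.9% of Actb, 11.1% of Tmsb10, 1.15% of Coro1a and 0.640% of Tmsb4x. With the share subtracted and the rest rescaled, Tmsb10 at 10 against 0.01 µM changed by 0.51 (limma adjusted p = 0.221), Coro1a by 0.41 (0.409) and Tmsb4x by -1.01 (0.00228), where 8.65% of all genes were called. At 0.1 against 0.01 µM, Tmsb10 kept its call at 1.06 (adjusted p = 0.0142) and Coro1a lost it at 0.83 (0.0759), with limma, beside 7.64% of all genes. At 1.0 against 0.01 µM both lost it, Tmsb10 at 0.79 (0.0688) and Coro1a at 0.60 (0.241), beside 5.67%. The difference in the log2 thymosin ratio between 10 and 0.01 µM was -1.53 after the same step.

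The largest P13.9 differences among the 9 tested genes were in Tmsb4x and Coro1a. Tmsb4x held 8.44, 10.7 and 6.63 in P13.9, with a change of -5.60 ± 0.16 (limma adjusted p = 4.75e-14) against naive cells, and Coro1a held 2.30, 3.34 and 2.21, a change of -4.11 ± 0.24 (limma adjusted p = 1.42e-10). Both were far below every T cell library. Tmsb10 fell by 1.55 ± 0.23 (adjusted p = 1.52e-05) and Arpc2 by 1.13 ± 0.18 (adjusted p = 3.47e-05), and Vim rose by 2.59 ± 0.37 (limma adjusted p = 1.02e-05). With these 5 of 9 genes called, the share of all genes called was 59%. Against T cells at 10 µM, 6 genes were lower and Arpc1b was higher in P13.9, beside 42% of all genes. Those 6 were Tmsb4x, Coro1a, Tmsb10, Arpc2, Actb, at -1.52 ± 0.24 (limma adjusted p = 5.74e-05), and Cfl1, at -1.45 ± 0.24 (limma adjusted p = 0.000101). Arpc1b rose by 0.61 ± 0.20 (limma adjusted p = 0.0192), a call lost without the third P13.9 library or libraries A or B at 10 µM (adjusted p up to 0.0728) and as CPM (0.190). Vim did not pass in that pair, at 0.07 ± 0.37 (limma adjusted p = 0.901).

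Ordered by their means, most neighbouring groups overlapped. For Actb the 4 doses and then naive cells and P13.9 formed such runs, with the gap below 10 µM. For Cfl1 the gap lay between 0.01 µM and naive cells, and for Vim between 1.0 µM, the lowest of the activated and P13.9 groups, and naive cells. Coro1a had gaps below 10 µM and above P13.9, and Tmsb10 below 10 µM, where naive cells and 0.01 µM followed, and above P13.9. For Tmsb4x only 10 µM and P13.9 stood apart at the low end, and the step between 0.1 and 10 µM, though without overlap, was not called (limma adjusted p = 0.717 over the 18 libraries). For Arpc2 the ranges at 1.0 and 0.01 µM did not overlap either, without a call (limma adjusted p = 0.516), and P13.9 lay below all T cell groups. Arpc1b and Pfn1 had no gap, and Actg1, untested, had gaps above P13.9 and above naive cells.

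Over the 15 T cell libraries, the genes whose log2 values ran most like each member were described by Pearson's r among 1438 genes averaging 20 or more. Naive and activated groups shape these values, so they have no test. Vim ran most like Lgals1 (r = 0.99), which encodes galectin 1, and Cfl1 most like Thy1 (0.99), a T cell surface protein. Actb ran most like Hint1 (0.98), and its closest fellow member was Vim (0.95). Coro1a and Tmsb10 were closest to each other among the members (0.94), and Coro1a ran most like Ppp1ca (0.97). The thymosin Tmsb4x reached only 0.80, with Eif3e, and Arpc1b was its closest fellow member (0.54).

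The wider actin system was read in 11 lists of 115 further genes, grouped by role. In the T cell fit 93 passed the filter, and at 10 µM against naive cells 37 rose and 22 fell, where 57.1% of all genes were called. As CPM 50 rose and 12 fell, beside 61.4% of all genes. Leaving out each library in turn kept 43 of the 59 calls throughout.

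**Figure D4:**
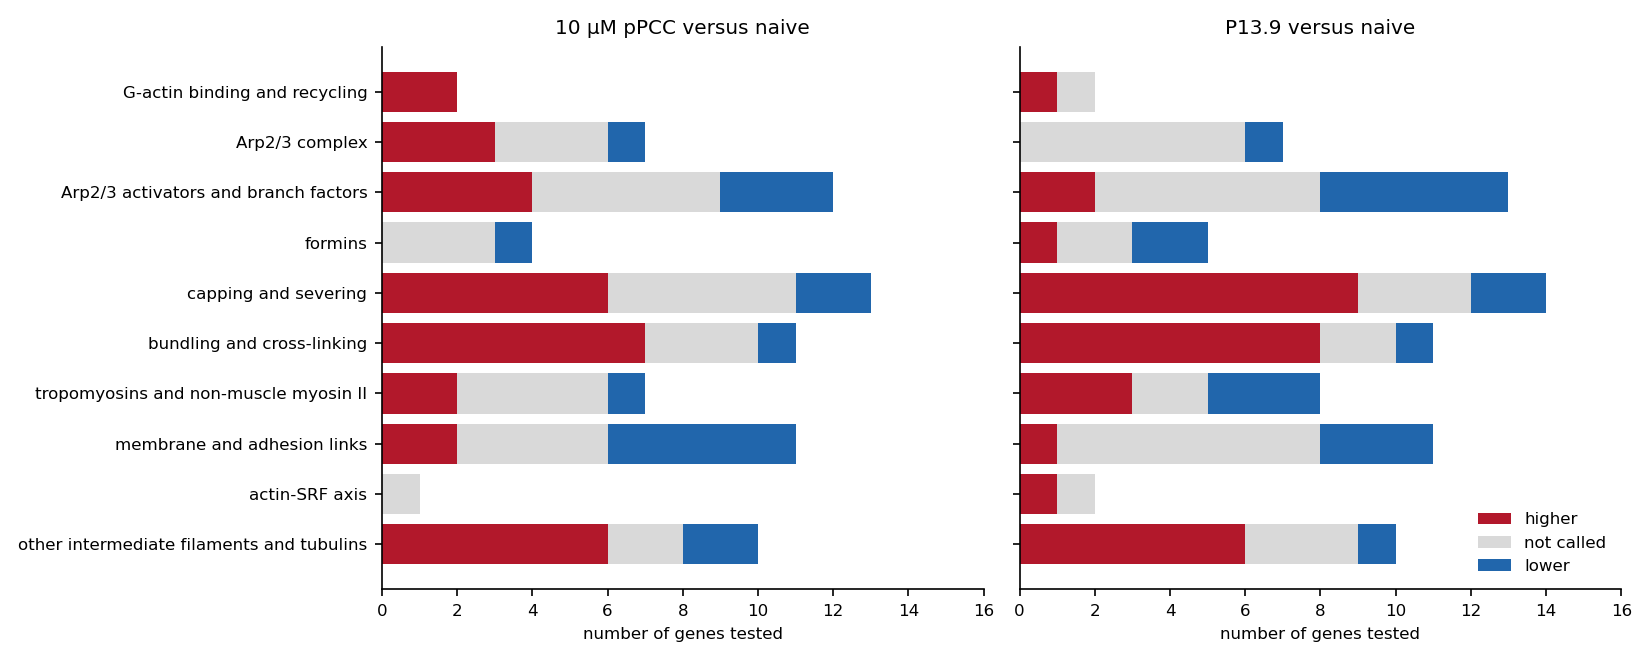
Number of genes in 10 role lists that were higher, not called or lower (limma adjusted p of 0.05, as deposited) at 10 µM pPCC against naive cells, left, and in P13.9 against naive cells, right. In bundling and cross-linking 7 of 11 genes were higher at 10 µM, and 8 of 11 were higher in P13.9.

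Genes that bind and recycle actin molecules rose, 2 of 2 tested: Twf2, a twinfilin, averaged 26.7 ± 2.10 at 10 µM against 8.25 ± 3.0 in naive cells, a log2 change of 1.63 ± 0.24 (limma adjusted p = 4.58e-05), and Cap1, which helps cofilin recycle actin, averaged 29.2 ± 1.94 at 10 µM against 15 ± 9.87 in naive cells, with 1.09 ± 0.33 (limma adjusted p = 0.01). Of 7 further subunits of the Arp2/3 complex, 3 rose and 1 fell. Arpc3 averaged 114 ± 9.18 at 10 µM against 57.4 ± 21.5 in naive cells, with log2 1.05 ± 0.22 (limma adjusted p = 0.000999), Arpc4 changed by 1.25 ± 0.35 (limma adjusted p = 0.00688), and Actr2, which encodes the subunit Arp2, changed by -0.93 ± 0.25 (limma adjusted p = 0.00519). As CPM 4 subunits rose and none fell. As deposited the subunits' calls thus went both ways, and Arpc1b and Arpc2 above were not called.

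Of 11 bundling and cross-linking genes 7 were higher and 1 lower, beside the 57.1% of all genes called in either direction, and as CPM 8 were higher and 0 lower. Tagln2, which encodes transgelin 2, averaged 337 ± 23.3 at 10 µM against 113 ± 35.5 in naive cells, a change of 1.61 ± 0.18 (limma adjusted p = 2.91e-06). Lcp1, the plastin of white blood cells, averaged 123 ± 8.03 at 10 µM against 62.3 ± 8.54 in naive cells, with 0.98 ± 0.15 (limma adjusted p = 5.37e-05), and Flna, filamin A, changed by 1.66 ± 0.29 (limma adjusted p = 0.000164). Of 13 capping and severing genes 6 rose and 2 fell. Ssh2, a phosphatase that activates cofilin, fell to 5.63 ± 2.56 at 10 µM, against 108 ± 12.1 in naive cells, with -4.12 ± 0.41 (limma adjusted p = 8e-07). Wdr1, which helps cofilin take filaments apart, rose by 1.72 ± 0.31 (limma adjusted p = 0.000251), and Coro1b, a coronin, by 2.48 ± 0.53 (limma adjusted p = 0.00106). The naive level of Coro1b rested on 4 reads.

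Activators of Arp2/3 and other branch factors were split, 4 higher and 3 lower of 12. Wasl, which encodes N-WASP, an activator of Arp2/3, averaged 1.32 ± 1.09 at 10 µM against 13.8 ± 5.46 in naive cells, with -2.71 ± 0.42 (limma adjusted p = 6.59e-05), and Abi1, of the WAVE complex, changed by -1.88 ± 0.37 (limma adjusted p = 0.000477). Among 4 formins, which lengthen unbranched filaments, Diaph1 was called lower at -0.50 ± 0.19 (limma adjusted p = 0.0394), but its change was 0.13 as CPM and 0.18 with edgeR. Fmnl1 (0.23 ± 0.30), Inf2 (0.87 ± 0.74) and Fmnl2 (-0.39 ± 0.54) were not called. Links to the membrane and adhesions were 2 higher and 5 lower of 11, or 3 and 3 as CPM. Enah, which extends filaments at the cell edge, averaged 0.891 ± 0.455 at 10 µM against 16.8 ± 2.48 in naive cells, with -3.25 ± 0.38 (limma adjusted p = 4.37e-06). Ablim1 changed by -2.19 ± 0.29 (limma adjusted p = 1.56e-05). Evl was higher and averaged 23.5 ± 3.74 at 10 µM against 2.17 ± 3.75 in naive cells, from 3 naive reads (adjusted p = 9.06e-05, limma).

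Of 7 tropomyosins and myosin II genes, 2 rose and 1 fell: Tpm4 changed by 2.12 ± 0.72 (limma adjusted p = 0.0201), Myl12a by 0.97 ± 0.34 (limma adjusted p = 0.0236) and Tpm1 by -1.0 ± 0.35 (limma adjusted p = 0.0249), and each of these calls was lost when some single library was left out. Of the 7 genes around serum response factor only Mrtfa was tested, with 0.97 ± 0.56 (limma adjusted p = 0.152). Tubulins and other intermediate filaments were 6 higher and 2 lower of 10. Tubb5 averaged 290.0 ± 4.32 at 10 µM against 57.5 ± 41.0 in naive cells, with 2.53 ± 0.30 (limma adjusted p = 4.51e-06), Tuba1c changed by 1.16 ± 0.15 (limma adjusted p = 1.48e-05), and Lmna, which encodes the nuclear lamins A and C, by -2.40 ± 0.37 (limma adjusted p = 5.53e-05). Tubulins have near-identical copies, so their levels are uncertain.

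Between 10 and 0.01 µM, 4 of the 93 genes were higher and 9 lower, beside 8.15% of all genes called. The 3 calls that no left-out library ended, Fscn1, Lmna and Rhoc, were of genes with higher levels in P13.9 than at either dose. Fscn1, the bundler fascin, averaged 2.48 ± 0.831 at 10 µM against 19.9 ± 1.26 at 0.01 µM, with -2.61 ± 0.39 (limma adjusted p = 0.000647), and 57.0 ± 6.59 in P13.9. Lmna averaged 2.14 ± 0.859 at 10 µM against 23.2 ± 4.04 at 0.01 µM, with -2.97 ± 0.37 (limma adjusted p = 0.000178), and 69.7 ± 5.06 in P13.9. Rhoc averaged 5.22 ± 2.05 at 10 µM against 41.5 ± 3.64 at 0.01 µM, with -2.82 ± 0.50 (limma adjusted p = 0.00276), and 155 ± 26.0 in P13.9. With the P13.9 share subtracted, 3 of the 93 were called, beside 8.65% of all genes: Tagln2, higher at 0.78 (limma adjusted p = 0.026), Actr2, lower at -1.30 (0.00831), and Rock1, lower at -2.14 (0.0342), and Rhoc turned to 1.91 without a call (0.143). The subtraction allowed no negative values, and the part of this limit in the turn of Rhoc was not tested. Rock1, which encodes a kinase that acts on myosin, is named here after its value was seen. As deposited, Tagln2 changed by 0.80 ± 0.18 (limma adjusted p = 0.0129) and Actr2 by -1.01 ± 0.25 (limma adjusted p = 0.0205).

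In P13.9 against naive cells, 98 of the listed genes were tested, and 34 were higher and 29 lower, beside 59% of all genes called. Lcp1 averaged 2.62 ± 0.630 in P13.9 against 62.3 ± 8.54 in naive cells, with -4.13 ± 0.17 (limma adjusted p = 2.14e-12). The bundler fascin was higher in P13.9: Fscn1 averaged 57.0 ± 6.59 in P13.9 and had no read in naive cells (adjusted p = 2.05e-10, limma). Of 14 capping and severing genes 9 were higher and 2 lower, and of 11 bundling and cross-linking genes 8 were higher and 1 lower. Fmnl1, a formin of white blood cells, averaged 0.223 ± 0.386 in P13.9, from 1 read, against 17.7 ± 7.58 in naive cells (adjusted p = 9.72e-09, limma). Fmnl2 averaged 18.4 ± 2.67 in P13.9 against 1.30 ± 2.25 in naive cells, from 1 naive read (adjusted p = 1.93e-05, limma).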

How the data were processed

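TRIzol RNA was turned into 3′ libraries with Lexogen's QuantSeq kit, per the labels' protocols. The authors deposited signal values, read counts scaled by size factors of the median-of-ratios method, as the name of the deposited table states. Per the submitters' processing notes the build was mm10 and the tools were HTSeq 0.9.1, STAR 2.6.1d, FastQC 0.11.8 and DESeq2. The annotation and strand setting are not stated in the sources. Values were whole multiples of 1 read for 284543 of 284544 values (tolerance 0.01 reads), so reads were recovered. The 111 features without a name, 12.5% to 15.7% of naive reads and 1.94% to 5.36% elsewhere, were left out. Genes that reached 5 in 3 or more libraries were tested on log2(value + 1) with limma 3.58.1 (lmFit, eBayes with trend) in R 4.3.3, 7263 genes over the 15 T cell libraries and 8178 over all 18 for P13.9. The Benjamini-Hochberg adjustment ran over all of these genes, and calls are below 0.05. Ratios within a library were compared by two-sided permutation tests. Alternatives were edgeR 4.0.16 and DESeq2 1.42.0 on recovered reads, CPM, quantile normalization, another pseudocount, no filter, only the groups compared, array weights, blocks, subtraction of the P13.9-like share followed by rescaling, and leaving out each library. The share was subtracted from activated libraries only. Naive libraries, with shares of 0%, 5.91% and 4.99%, stayed as deposited, so subtracted changes against naive cells were corrected on the activated side alone. The test at 10 against 0.01 µM and the dose slope were run on simulated data with the same spread in every library. No comparison with naive cells, whose replicates differed more, was simulated. The 10 genes, the role lists, the markers and the rule for named genes (the members and, per list, up to 3 called genes with the smallest adjusted p, or every gene of a list with 5 or fewer tested) were chosen with earlier results of these data known. Levels are means ± SD, and log2 changes are ± SE. Groups came from the sample titles. Letters A to C of activated libraries were not used as pairs in the main fit. Of 18 same-letter pairs, 5 had a correlation of deviations over 0.1 (range -0.34 to 0.33). With 3 libraries a group this check cannot settle whether the letters pair samples. Of the 11 role lists, 1 is counted in the totals but its own result is not reported here.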

Additional observations from a re-analysis of the deposited data

How the results depend on the processing

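Of 1854 values of the 9 tested genes under the alternatives, 1616 kept direction and side of the threshold, 31 lost a call, 59 gained one, 3 called ones turned direction, and 145 that were not called as deposited changed sign, 20 of them with a call under the alternative. The called values that turned were Tmsb4x at 10 µM against naive cells, at 0.058 as CPM, 0.12 with edgeR and 0.056 with DESeq2. Among the listed genes Diaph1 turned in the same comparison, at 0.13, 0.18 and 0.14, and Rhoc at 10 against 0.01 µM, at 1.91 with the P13.9 share subtracted. The cause was not tested. The number of the 9 genes called against naive cells at 0.01 µM, 3 as deposited, was 7 as CPM, 5 after quantile normalization, 5 with the share subtracted, 6 with edgeR and 5 with DESeq2. At 0.1 µM it was 8 as CPM, with edgeR and with DESeq2, and at 1.0 µM it was 8, 9 and 8. At 10 against 0.01 µM and at 0.1 against 0.01 µM it was 4 with array weights and 1 with the share subtracted, and at 1.0 against 0.01 µM it was 0 with the share subtracted and 4 with DESeq2. At 10 against 1.0 µM it was 1 with array weights and with DESeq2, and at 10 against 0.1 µM 1 with array weights, each time Tmsb4x. For the dose slope it was 1 with the share subtracted, again Tmsb4x. The thymosin ratio at 0.01 µM against naive cells was 0.13 with the share subtracted. Leaving out 1 library gave 0 to 2 called genes at 10 against 0.01 µM, 1 to 2 at 0.1 and at 1.0 against 0.01 µM, and 0 to 1 for the slope (Coro1a, without 0.1 µM B).

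With the replicate block over the activated libraries, the changes at 10 against 0.01 µM were -0.48 for Tmsb4x (limma adjusted p = 0.0303), 0.87 for Tmsb10 (0.0139) and 0.92 for Coro1a (0.0139). All 3 were also called in the same libraries without the block, and calls over all genes numbered 1739 with it and 1954 without it. No paired analysis was possible against naive cells or P13.9 because their columns carry no letters. With the series of sample numbers as a block, the dose slope was -0.10 for Tmsb4x, 0.16 for Tmsb10 and 0.19 for Coro1a, with no call.

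Over all genes, 592 were called at 10 against 0.01 µM, 2528 with edgeR, 2330 with DESeq2, 3334 with array weights and 2548 in a fit of those groups alone. At 0.1 against 0.01 µM 406 were called, and 1746 with edgeR. At 1.0 against 0.01 µM 312 were called, and 1623 with edgeR. At 10 against 0.1 µM these were 7 and 111, and at 10 against 1.0 µM 6 and 175. The dose slope was called for 1051 genes, for 373 with the series of sample numbers as a block and for 534 with the share subtracted. Of the calls at 10 against 0.01 µM 23.3% were higher, against 36.8% after quantile normalization, 44.5% with edgeR and 54.6% with the share subtracted. At 0.1 against 0.01 µM 38.9% were higher, 25.3% as CPM and 62.7% with the share subtracted, and at 1.0 against 0.01 µM these were 38.1%, 27.0% and 71.1%. In P13.9, 50.7% of calls were higher than in naive cells and 60.8% as CPM, and against 10 µM these were 62.8% and 51.8%. The shallow naive libraries limit every comparison with naive cells, where low genes rest on a few reads.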
